A study of Mus musculus with 24 samples.

Results

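Transcripts of 9 enzymes that make, lengthen or desaturate fatty acids were followed in mouse CD4 T cells: Acaca, Fasn, Elovl1, Elovl5, Elovl6, Scd1, Scd2, Fads1 and Fads2. They were chosen by name, as the rows of the deposited expression table whose Ensembl identifier carries these symbols in GENCODE release M21 on GRCm38, and all 9 were found among 46981 identifiers. The study compared cells meant to lack either of 2 enzymes that supply acetyl-CoA with wild type (WT) cells, in 2 cohorts of 12 libraries. In the Acly cohort, the knockout (KO) was labelled CD4-Cre Acly fl/fl, in which Cre under Cd4 control deletes floxed Acly from the thymus on. In the Pdha1 cohort, the KO was labelled Pdha1 fl/fl CD4CreERT2, with a Cre that acts only after tamoxifen, and the labels give no tamoxifen schedule. Each cohort had its own WT cells, for which the labels name neither a Cre nor a floxed allele. Each genotype was taken untreated (resting) and after stimulation through CD3 and CD28 for 24 h (activated), all in RPMI with 15% serum and 2 mM glutamine, which gives 8 groups of 3 libraries. The labels give no age or sex and do not say whether the replicates of a group are separate animals, so the p-values measure only the spread between these libraries.

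Fatty acids are built in the cytosol from acetyl-CoA, which ATP citrate lyase, the product of Acly, makes from citrate. Acetyl-CoA carboxylase turns acetyl-CoA into malonyl-CoA, fatty acid synthase assembles both into palmitate, elongases of the endoplasmic reticulum add further carbons from malonyl-CoA, and desaturases then introduce double bonds. T cells that prepare to divide need such chains for membranes, and the SREBP transcription factors, encoded by Srebf1 and Srebf2, are known to switch on many genes of the pathway.

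The upstream sequences of 3 enzymes that rose together on activation in the Acly cohort are printed to show which motifs lie before the start site. RefSeq windows on GRCm38.p6 matched 6 of the 9 genes, with 7 start sites. Not all windows lie upstream of the annotated gene. The starts of the Acaca window (chr11:84195438) and of a second Elovl1 window (chr4:118429701) lie inside the gene. Of the 250 bases, 243 in the Fads2 window and 129 in the Elovl6 window are annotated exon. Each line gives the 250 bases before a start, 5′ to 3′ on the strand of the gene, with every match to the motifs named below in capitals. Fasn is shown for chr11:120824548-120824797 (reverse strand), Elovl1 for chr4:118427843-118428092 and Elovl5 for chr9:77917115-77917364 (both forward strand).
Fasn: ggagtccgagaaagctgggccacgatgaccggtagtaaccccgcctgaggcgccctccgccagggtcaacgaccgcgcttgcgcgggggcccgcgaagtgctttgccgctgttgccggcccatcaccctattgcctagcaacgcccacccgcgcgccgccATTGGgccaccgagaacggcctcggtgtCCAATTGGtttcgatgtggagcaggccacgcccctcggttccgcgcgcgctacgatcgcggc
Elovl1: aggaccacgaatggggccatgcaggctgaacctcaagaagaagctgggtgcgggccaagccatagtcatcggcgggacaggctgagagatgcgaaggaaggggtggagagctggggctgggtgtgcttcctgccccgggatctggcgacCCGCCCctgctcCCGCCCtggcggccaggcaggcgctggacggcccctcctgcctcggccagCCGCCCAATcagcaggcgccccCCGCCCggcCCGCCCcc
Elovl5: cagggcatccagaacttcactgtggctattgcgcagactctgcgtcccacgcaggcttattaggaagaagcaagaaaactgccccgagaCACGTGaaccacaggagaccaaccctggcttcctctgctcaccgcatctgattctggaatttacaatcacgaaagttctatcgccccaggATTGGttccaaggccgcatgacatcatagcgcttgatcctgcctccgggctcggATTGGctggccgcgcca
Positions count back from the start site, with −1 for the base just before it. The Fasn window held the CCAAT box (CCAAT) 3 times, starting at −90, −62 and −59, of which the last 2 overlap. The printed Elovl1 window held the GC box (GGGCGG) 5 times and CCAAT once, starting at −35 and overlapping a GC box. The second Elovl1 window, not printed, held 2 GC boxes and no CCAAT, and the windows of Acaca, Elovl6 and Fads2 held no CCAAT. The Elovl5 window held CCAAT at −71 and −17 and the E-box CACGTG at −161. Both strands were searched. Over 32851 RefSeq windows of the same length, 33.8% held CCAAT, 32.7% the GC box and 6.02% the E-box. The core of the sterol regulatory element, TCACNCCAC, occurred in 1.05% of all windows and in none of the 7 windows of the enzymes, which says only that these letters are not in them. A match is a description and no evidence of binding.

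Values are RPM as deposited, reads per 1000000. Libraries held 388902 to 1087675 recovered counts. A mean of 3 counts, about the upper 95% limit where 0 was counted, equals 2.03 to 6.83 RPM (the floor, for counting error only). Of the markers behind the label CD4 T cells, Cd4 lay at 49.3 to 298 RPM in the Acly cohort and 23.7 to 105 RPM in the Pdha1 cohort, and the CD8 chain Cd8a at 0 to 13.7 RPM. Genes of other lymphocytes were present too, with the CD8 chain Cd8b1 at 4.40 to 40.6 RPM and the B cell gene Ighm at 3.38 to 128 RPM over all libraries. Of genes that mark tissues best known for making fat, Adipoq, Cidec and Lep of fat cells and Alb, Apoa1 and Ttr of the liver reached at most 2.98 RPM, while Plin1 of fat cells lay at 1.76 to 29.3 RPM and Fgb of the liver at 0 to 7.57 RPM. The summed fat cell and stroma markers stood at 99.4 to 151 RPM in resting and 27.4 to 71.0 RPM in activated libraries of the Acly cohort. Among these markers Pecam1 had the highest median there, 49.1 RPM, while Adipoq, Cidec and Lep each had a median of 0. The part of these markers in the results was not tested. In activated cells of the Acly cohort, Acly itself was at 104, 111 and 109 RPM in WT and down to 11.3, 10.6 and 15.0 RPM in KO libraries. A sum over 1891 olfactory and vomeronasal receptor genes, families with no known use in T cells, came to 95846 to 110184 RPM in resting and 30239 to 41179 RPM in activated libraries of the Acly cohort. In the Pdha1 cohort, KO resting 3 (66695 RPM against 104102 to 109196 in the other resting libraries) and WT activated 3 (106047 RPM, as at rest) stood apart from their groups, Pdha1 transcripts did not separate the genotypes, and hemoglobin Hba-a1 reached 12640 RPM. Summed red cell and platelet markers in the Acly cohort were at 1204 RPM in KO resting 3 and 546 RPM in KO activated 3, against 21.2 to 116 RPM in the other 10 libraries. Several results that rest on these libraries are given with and without them. For KO against WT at rest in the Pdha1 cohort, the interactions and the difference between cohorts, values are given only with them.

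Activation of WT cells in the Acly cohort raised 6 of the 9 enzymes and lowered none by the test. Fasn, Elovl1, Fads1, Scd2 and Elovl5 rose clearly above the floor, and the call for Fads2 rested on 2 counts per activated library. No resting WT library held a count of Fads2, so its place in the numbers of enzymes given here adds no support. Acaca, Elovl6 and Scd1 had negative changes that did not pass. The share of all 31311 genes tested that limma called higher was 21.4%, and 23.8% were called lower. Groups without overlap gave 6 enzymes higher and 1, Acaca, lower, against 23.1% and 28.8% of genes. edgeR called 6 of the 9 (40.2% of genes) and DESeq2 5 (31.2%).

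Acaca (ENSMUSG00000020532, chr11:84129672-84401651) encodes acetyl-CoA carboxylase 1, which uses cytosolic acetyl-CoA directly. Resting WT libraries 1 to 3 held 38.4, 29.7 and 46.3 RPM of Acaca, and the activated ones 26.0, 29.3 and 26.5 RPM. The activated libraries lay just below the lowest resting one, and the means were 38.1 ± 8.33 and 27.3 ± 1.79 RPM (SD, n = 3). The log2 change was −0.46 ± 0.31 (limma, SE, adjusted p = 0.224), smaller in size than the median of −0.61 over all genes tested. Its sign turned with the scaling, to 0.01 under TMM-style scaling and 0.06 in edgeR, and quantile normalization gave −0.86 with a call (adjusted p = 0.0152).

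Fasn (ENSMUSG00000025153, chr11:120805846-120824547) encodes fatty acid synthase, which joins acetyl-CoA and malonyl-CoA into palmitate. In resting WT libraries it stood at 2.32, 2.82 and 0 RPM, at or under the floor of 3 counts. In activated WT libraries it stood at 32.02, 61.3 and 30.0 RPM (mean 41.1 ± 17.5, SD, n = 3), far above every resting library. The log2 change was 4.56 ± 0.54 (limma, adjusted p = 4.47e-09), the largest of the 9 in this comparison. Since the resting group held 4 counts in all, the ratio of pooled counts per depth was 23.6, with a 95% exact interval of 8.998 to 87.6 from counting error alone.

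Of the elongases, Elovl1 and Elovl5 rose and Elovl6 did not pass. Elovl1 (ENSMUSG00000006390, chr4:118428093-118432953), which lengthens saturated and monounsaturated chains to very long ones, went from 4.64, 1.41 and 4.47 RPM to 38.1, 45.3 and 50.5 RPM in WT (log2 change 3.62 ± 0.45, limma, adjusted p = 1.14e-08). Elovl5 (ENSMUSG00000032349, chr9:77917364-77984519), which lengthens polyunsaturated chains, went from 20.9, 14.1 and 17.9 RPM to 45.1, 67.0 and 55.0 RPM (1.63 ± 0.32, adjusted p = 6.54e-05). For both, every activated library lay above every resting one. Elovl6 (ENSMUSG00000041220, chr3:129532355-129638495), which lengthens palmitate to stearate and so takes up the product of Fasn, stood at 16.3, 29.7 and 26.8 RPM at rest and 14.0, 7.90 and 16.8 RPM after activation. Its groups overlapped, and its change of −0.91 ± 0.39 missed the threshold by a little (adjusted p = 0.0529). It passed with a pseudocount of 1 (adjusted p = 0.0485), under quantile normalization (0.0173) and with a filter of 5 RPM (0.0372), and was −0.45 under TMM-style scaling and −0.38 in edgeR, without a call.

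Among the desaturases, Scd2, Fads1 and Fads2 passed the test and Scd1 did not. Scd2 (ENSMUSG00000025203, chr19:44293674-44306864) encodes a stearoyl-CoA desaturase, which makes monounsaturated chains, and stood at 3.48, 7.05 and 8.94 RPM in resting and 49.1, 51.7 and 42.5 RPM in activated WT libraries (log2 change 2.87 ± 0.39, limma, adjusted p = 1.04e-07). Its neighbor and paralog Scd1 (ENSMUSG00000037071, chr19:44394455-44407879), the main form in liver and fat, held 3, 1 and 1 counts at rest and 0, 3 and 0 counts after activation, so no difference was detectable at this depth (ratio of pooled counts 0.395, 95% exact interval 0.0614 to 2.03). Fads1 (ENSMUSG00000010663, chr19:10182888-10196877), the delta-5 desaturase of polyunsaturated chains, stood at 1.16, 1.41 and 0 RPM at rest, a total of 2 counts, and at 11.98, 19.8 and 15.0 RPM after activation (3.76 ± 0.61, adjusted p = 2.82e-06). The ratio of pooled counts for Fads1 was 17.8, with a 95% exact interval of 4.69 to 151. Fads2 (ENSMUSG00000024665, chr19:10062765-10101746), the delta-6 desaturase that acts before Fads1, had no count in any resting WT library and 2 counts in each activated one (1.99, 1.58 and 1.76 RPM). Both Fads2 groups lay under the floor of 3 counts, so no fold is given. Its limma call (adjusted p = 0.0212) was lost in DESeq2 (0.0778) and without WT activated 1 (0.0590), and Fads2 passed the filter on low values only through activated libraries.

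**Figure D1:**
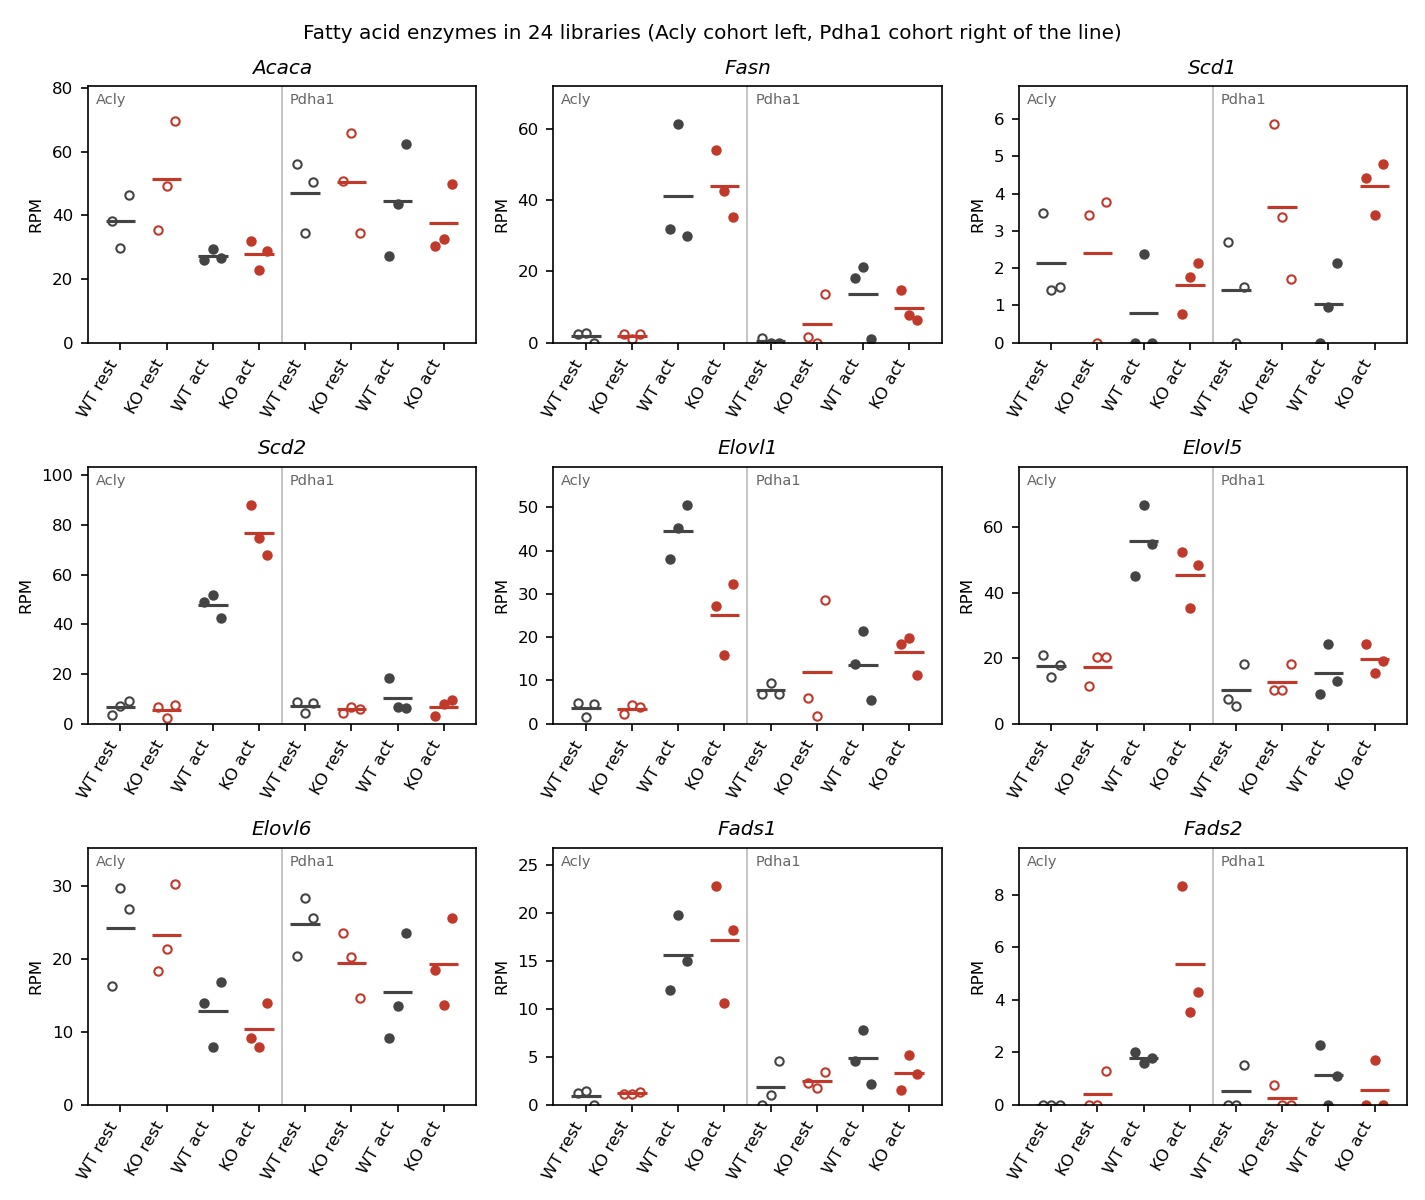
RPM of each of the 9 enzymes (1 panel per gene, each with its own axis from 0) in all 24 libraries. Open points are resting and filled points activated libraries, grey is WT and red KO, and short bars are means of 3 libraries. Fasn, Scd2, Elovl1, Elovl5 and Fads1 are higher in activated than in resting cells without overlap in the Acly cohort (left of the line), as is Fads2 near the floor. Acaca is lower without overlap within each genotype there, and Elovl6 in KO only. No gene separates activated from resting cells within a genotype of the Pdha1 cohort (right).

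In Acly KO cells activation raised the same 6 enzymes by the test, and Acaca and Elovl6 fell. Of these 6, Fads2 could be tested only through its activated libraries, since 5 of the 6 resting libraries of the cohort held no count of it, so its call adds no support. Over all genes, 20.7% were called higher and 26.7% lower. Groups without overlap gave 6 enzymes higher and 2 lower, against 22.6% and 33.2% of genes. edgeR and DESeq2 each called 6 of the 9 (42.2% and 31.6% of genes). Fasn went from 2.28, 1.06 and 2.52 RPM to 54.1, 42.5 and 35.4 RPM (4.22 ± 0.54, limma, adjusted p = 2.63e-08), and every activated library lay above every resting one. Scd2 went from 6.86, 2.13 and 7.57 RPM to 88.0, 74.8 and 67.8 RPM (3.84 ± 0.39, adjusted p = 1.07e-10). Elovl1 went from 2.28, 4.26 and 3.78 RPM to 27.3, 15.9 and 32.2 RPM (2.68 ± 0.45, adjusted p = 5.16e-06).

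Elovl5 went from 11.4, 20.3 and 20.2 RPM to 52.5, 35.4 and 48.4 RPM in KO (1.39 ± 0.32, limma, adjusted p = 0.000482). Fads1 held 1 count in each resting KO library and reached 22.7, 10.6 and 18.2 RPM (3.35 ± 0.61, adjusted p = 1.92e-05, ratio of pooled counts 15.1, 95% exact interval 4.93 to 75.4). Fads2 held 1 count over the 3 resting KO libraries and stood at 8.31, 3.53 and 4.28 RPM after activation (adjusted p = 0.00275, ratio of pooled counts 14.6, interval 2.32 to 607). Resting and activated KO groups overlapped for none of the 9 but Scd1, which stayed within 0 to 3 counts in every library.

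Acaca went from 35.5, 49.2 and 69.8 RPM to 31.9, 22.98 and 28.9 RPM in KO cells and fell by 0.83 ± 0.31 on the log2 scale (limma, adjusted p = 0.0245). Elovl6 went from 18.3, 21.3 and 30.3 RPM to 9.07, 7.94 and 13.9 RPM and fell by 1.15 ± 0.39 (adjusted p = 0.0140). For both genes all 9 pairs of an activated and a resting KO library were lower after activation. Relative to the median of all genes, −0.67, these changes were −0.16 for Acaca and −0.47 for Elovl6. Both calls were lost under TMM-style scaling (−0.32 and −0.65, adjusted p = 0.370 and 0.154), in edgeR and DESeq2, and without KO resting 3 or KO activated 2. KO resting 3, which held the highest resting values of both genes in KO, is the library with 1204 RPM of red cell and platelet markers, whose part was not tested.

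**Figure D2:**
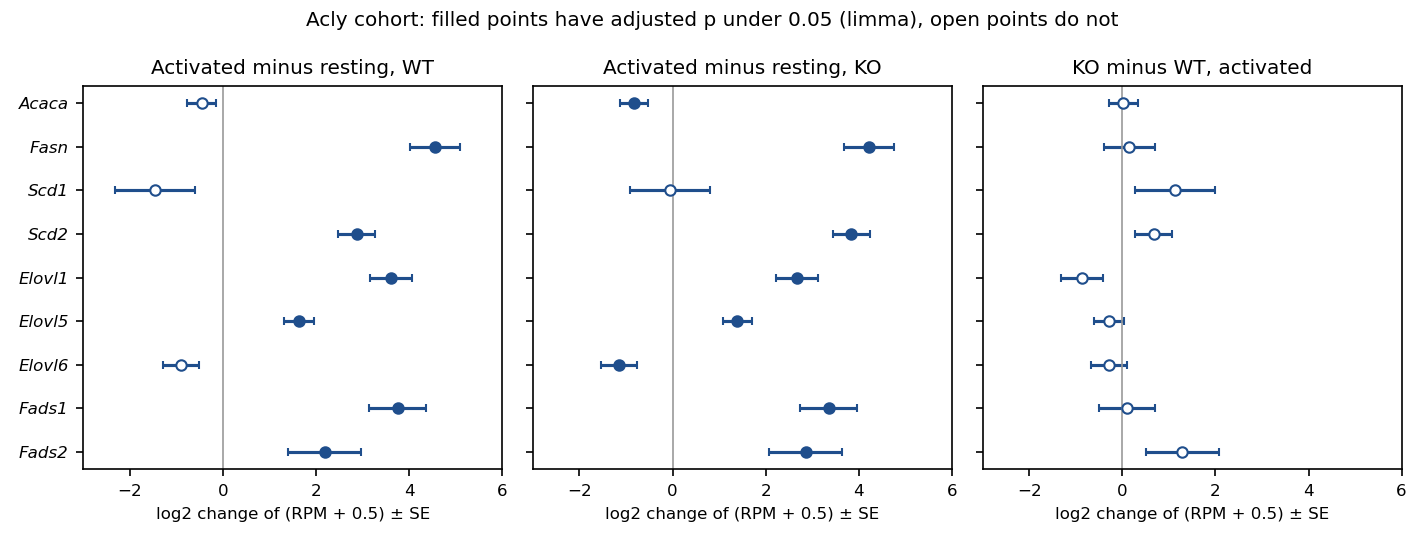
Fitted log2 change of (RPM + 0.5) with its standard error for the 9 enzymes in the Acly cohort, for activation in WT and KO cells and for KO against WT in activated cells. Filled points passed an adjusted p under 0.05 in limma and open points did not; 6 enzymes rose in each genotype, Acaca and Elovl6 fell in KO, none passed between genotypes, and the points of Fads2 and Scd1 depend on the pseudocount because their groups lie near the floor.

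The split of calls in this cohort moved with the scaling. Of the calls over all genes, 6700 were higher and 7447 lower in WT and 6483 higher and 8363 lower in KO. With TMM-style scaling these became 7813 and 4563 in WT and 7656 and 5162 in KO, and the median of all genes moved from −0.61 to −0.29 in WT and from −0.67 to −0.39 in KO. Under TMM-style scaling, quantile normalization, edgeR and DESeq2, Fasn, Scd2, Elovl1, Elovl5 and Fads1 kept positive changes and their calls. The Fads2 call in WT was lost in DESeq2, as given above. The sign of Fads2 could not turn in WT, where no resting library held a count, so it adds no support here. The receptor genes fell 2.92-fold in WT and 3.10-fold in KO from resting to activated means, while Acaca was lower by 1.40-fold and 1.84-fold and Elovl6 by 1.88-fold and 2.26-fold. Over the 12 libraries of this cohort, the correlation with the log2 receptor sum was 0.76 for Acaca, 0.85 for Elovl6 and 0.30 for Scd1. For the other enzymes it was negative, from −0.96 (Fasn) to −0.86 (Fads2). Summed T cell markers (8 of 8 genes detected in every library) stood at 534 to 986 RPM in resting and 2207 to 3097 RPM in activated libraries of the Acly cohort, and all 8 rose in both genotypes. Summed myeloid markers stood at 51.2 to 83.5 RPM in resting and 12.3 to 35.3 RPM in activated libraries. Of their genes, Itgam (2.64 to 49.4 RPM) and Csf1r (7.94 to 30.2 RPM) were detected in all 12 libraries, and S100a8 was at 0 in all 12. What part these shifts have in the changes of the enzymes was not tested. In such bulk libraries, fewer cells of a type and less RNA per cell cannot be told apart.

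**Figure D3:**
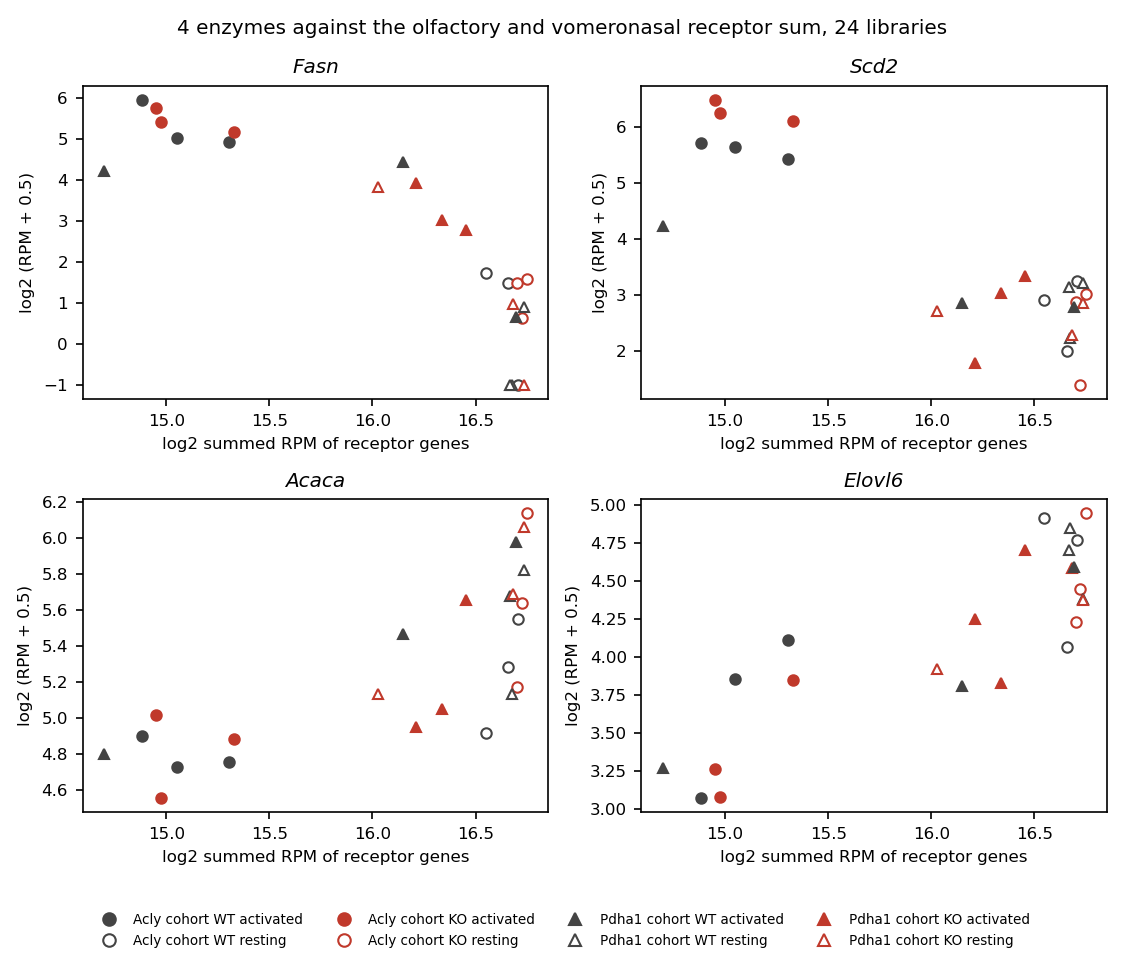
Log2 of RPM + 0.5 of 4 enzymes against log2 of the summed RPM of the olfactory and vomeronasal receptor genes, 1 point per library (circles Acly cohort, triangles Pdha1 cohort, filled activated, open resting, grey WT, red KO). In the Acly cohort, Fasn and Scd2 are high and Acaca and Elovl6 mostly low in the activated libraries, where the receptor sum is low.

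The other genes of the pathway were read as lists in the same comparison, beside the 21.4% of all genes called higher and 23.8% called lower. In WT cells of the Acly cohort, 6 of 10 genes of the elongation cycle and its electron donors rose and none fell, led by Hsd17b12 (3.92 ± 0.35), which reduces the keto intermediate of each round, and Tecr (2.61 ± 0.28), which completes the round (limma, adjusted p = 4.39e-12 and 3.27e-10). Of 7 genes that supply cytosolic acetyl-CoA and NADPH, 4 rose and 1 fell, among them the citrate carrier Slc25a1 (3.88 ± 0.43) and G6pdx of the pentose phosphate pathway (4.93 ± 0.59). Of 8 tested paralogs of the enzymes none rose and 3 fell: Elovl7 (−1.52 ± 0.40), Scd3 (−1.36 ± 0.38) and Fads6 (−1.27 ± 0.42). The number of paralogs that fell was 1 under TMM-style scaling and in DESeq2, and 3 in edgeR.

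Of 23 tested regulators, 14 rose and 2 fell in WT. Srebf2 rose by 1.54 ± 0.29 (limma, adjusted p = 3.65e-05), its escort Scap by 2.66 ± 0.51 (4.84e-05), the feedback gene Insig1 by 0.57 ± 0.23 (0.0438) and Srebf1 by 1.45 ± 0.61 (0.0484). Cholesterol synthesis, which shares acetyl-CoA and SREBP control with the enzymes, had 16 of 21 genes higher and none lower. For acyl-CoA synthetases and glycerolipid synthesis, the users of the finished chains, 13 of 28 rose and 4 fell, with the falls lost in edgeR and DESeq2. Uptake, binding and storage had 1 of 10 higher (Fabp5, 2.43 ± 0.35) and 3 lower, among them Vldlr (−2.97 ± 0.66). In the separate mitochondrial fatty acid synthesis, 5 of 7 rose and 2 fell. In KO cells, where 20.7% of all genes were called higher and 26.7% lower, the genes that rose and fell numbered 6 and 0 in the elongation cycle, 4 and 0 in acetyl-CoA and NADPH supply, 0 and 4 among the paralogs and 14 and 2 among the regulators. They numbered 15 and 4 in glycerolipid synthesis, 2 and 4 in uptake and storage, 17 and 0 in cholesterol synthesis and 5 and 2 in mitochondrial synthesis. In WT cells the median log2 change was 2.18 for the 9 enzymes, which is the fitted value of Fads2, and 1.63 when Fads2 is set to no change, against −0.61 for all genes.

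Whether loss of Acly, the step just upstream, moved the enzymes was asked in activated cells. limma called none of the 9 (0 also at an unadjusted p under 0.05, and 0 in edgeR and DESeq2), where it called 0.00639% of all genes, Acly among them, and edgeR and DESeq2 called 0.0511% and 0.0128%. At an unadjusted p under 0.05, edgeR had 3 of the 9 and DESeq2 2, where 5.33% and 1.4% of all genes were at that limit. Scd2 stood higher in KO than in WT cells in every library and Elovl1 lower, without passing over all genes. Both enzymes that use acetyl-CoA itself, Acaca and Fasn, had overlapping groups and changes near 0.

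For Acaca, activated WT libraries held 26.0, 29.3 and 26.5 RPM against 31.9, 22.98 and 28.9 RPM in KO (0.02 ± 0.31, limma, adjusted p = 1). The means of Fasn were 41.1 ± 17.5 RPM (WT) and 44.0 ± 9.41 RPM (KO, SD, n = 3, log2 change 0.15 ± 0.54, adjusted p = 1). For neither does a missed threshold show equal levels. Elovl5 (55.7 ± 10.9 and 45.4 ± 8.92 RPM, −0.29 ± 0.32), Elovl6 (12.9 ± 4.53 and 10.3 ± 3.17 RPM, −0.28 ± 0.39) and Fads1 (15.6 ± 3.94 and 17.2 ± 6.13 RPM, 0.10 ± 0.61) overlapped too.

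Scd2 stood at 49.1, 51.7 and 42.5 RPM in activated WT and at 88.0, 74.8 and 67.8 RPM in activated KO libraries. The lowest KO library lay above the highest WT library, and the means of 47.8 ± 4.75 and 76.9 ± 10.3 RPM (SD, n = 3) gave 1.61-fold. The log2 change was 0.68 ± 0.39 (limma, adjusted p = 1). edgeR gave 0.79 (adjusted p = 0.307), and limma on these 2 groups alone gave 0.68 ± 0.20 (adjusted p = 0.191). Leaving out each library in turn kept it between 0.58 and 0.76.

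Elovl1 stood at 38.1, 45.3 and 50.5 RPM in activated WT and at 27.3, 15.9 and 32.2 RPM in activated KO libraries, so that all 9 pairs were lower in KO. The means were 44.6 ± 6.26 and 25.1 ± 8.35 RPM (SD, n = 3), and the log2 change was −0.87 ± 0.45 (limma, adjusted p = 1), −0.75 in edgeR (adjusted p = 0.606) and −0.57 without KO activated 2. The 3′ end of Elovl1 shares 53 bases with Cdc20 on the opposite strand, which stood at 6.98, 15.0 and 5.28 RPM in WT and 1.51, 0.881 and 5.35 RPM in KO. The sources used here do not say whether counting used the strand. The third gene without overlap was Fads2, with 2 counts in each WT library and 11, 4 and 4 counts in KO (1.28 ± 0.78, adjusted p = 1, near the floor). These 2 enzymes higher and 1 lower in all pairs compare with 3.56% and 7.38% of all genes. Scd1 held 0, 3 and 0 counts in WT and 1, 2 and 2 counts in KO (ratio 1.67, 95% exact interval 0.325 to 10.8).

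In the same comparison none of the SREBP genes named above passed, with Srebf1 at 0.51 ± 0.61, Srebf2 at 0.05 ± 0.29, Insig1 at 0.30 ± 0.23 and Scap at −0.83 ± 0.51 (limma, adjusted p = 1 for each). The 21 genes of cholesterol synthesis had a median of 0.66, with 18 positive and none called, led by Hmgcs1 (1.53 ± 0.34, adjusted p = 0.450). The 9 enzymes had a median of 0.10 with 6 positive, beside −0.05 over all genes. The 10 genes of the elongation cycle had a median of −0.02 and the 28 glycerolipid genes −0.10, and among the pathway lists only acetyl-CoA supply, which holds Acly (−3.10 ± 0.44, adjusted p = 0.000429), had a call. Summed T cell markers stood at 2861 to 3097 RPM in activated WT and 2207 to 2612 RPM in activated KO libraries, with Thy1 called lower and none of 8 positive, and the receptor sums overlapped (30239 to 40501 and 31618 to 41179 RPM). What part this has in the values of Scd2 and Elovl1 was not tested.

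**Figure D4:**
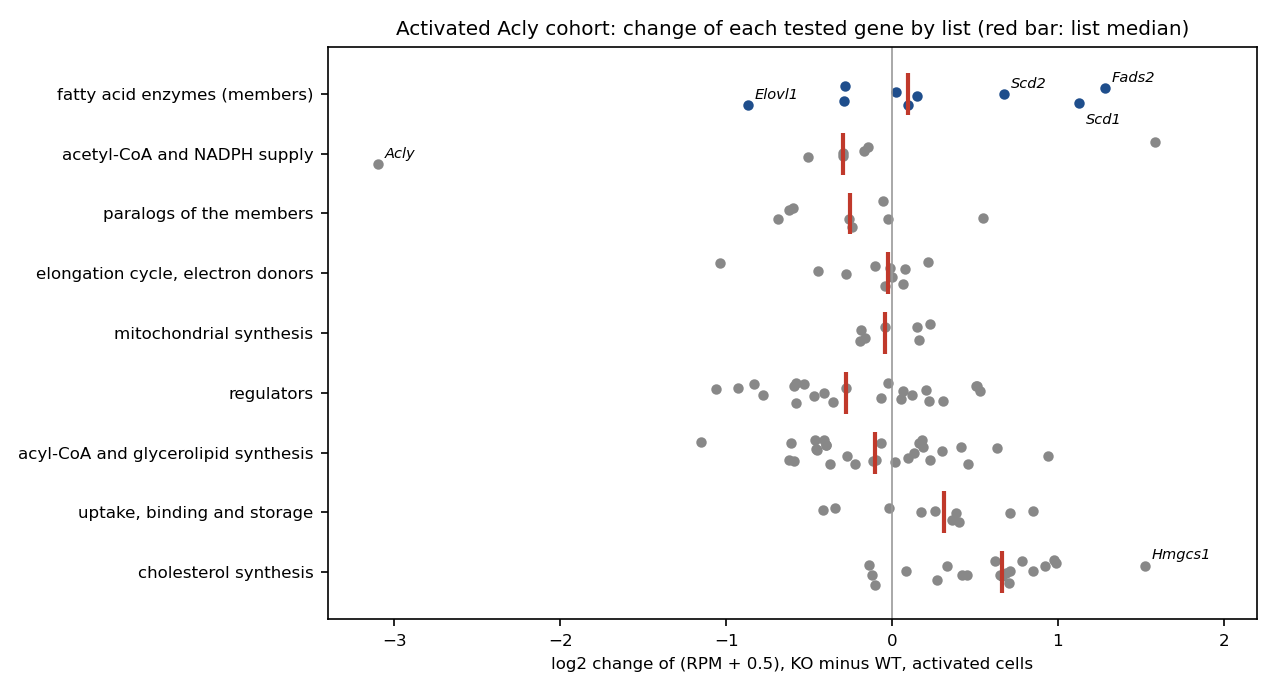
Log2 change of (RPM + 0.5) of KO against WT in activated cells of the Acly cohort, 1 point per tested gene, by list (vertical scatter within a list carries no value; red bars are list medians). The 9 enzymes spread from −0.87 (Elovl1) to 1.28 (Fads2) around a median of 0.10, the cholesterol list lies mostly right of 0 with a median of 0.66, and Acly alone passed the test among the genes drawn.

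At rest, the Acly KO cells differed in none of the 9 enzymes by limma (0 also at an unadjusted p under 0.05, and 0 in edgeR and DESeq2, with 0% of all genes called by limma, 0.00319% by edgeR and 0% by DESeq2). Acly itself overlapped between the resting genotypes, with 5.80, 9.87 and 8.94 RPM in WT and 8.0, 1.06 and 5.04 RPM in KO libraries (limma, adjusted p = 0.739), so its transcript does not check the KO label at rest. Changes ran from −0.29 ± 0.39 for Scd2 to 0.61 ± 0.78 for Fads2, and no enzyme had groups without overlap, against 7.07% of genes. Fasn, Fads1, Fads2, Scd1 and Elovl1 lay around or under the floor of 3 counts in resting libraries, where a difference was not detectable at this depth. Scd2 was little above it, at 2 to 6 counts. Acaca, the best covered by counts at rest, had means of 38.1 ± 8.33 RPM (WT) and 51.5 ± 17.2 RPM (KO, SD, n = 3, log2 change 0.40 ± 0.31, limma, adjusted p = 0.998). The 1891 receptor genes summed to 95846 to 110184 RPM in these libraries, and what part such signal has in the Acaca values was not tested.

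Whether activation acted differently on the enzymes without Acly was tested as the interaction of genotype and activation. None passed (limma, 0 of 9, 0 at an unadjusted p under 0.05, 0 in edgeR and DESeq2, with 0% of genes called by limma, 0.0192% by edgeR and 0% by DESeq2). Scd2 had the largest positive value among the better covered enzymes, 0.97 ± 0.56, and Elovl1 the largest negative value of all 9, −0.94 ± 0.64 (adjusted p = 1.00 for each).

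In the Pdha1 cohort no enzyme passed in limma in any comparison, where limma called 0% of all genes in each. Activation of WT cells gave Fasn the largest change. Resting WT libraries held 1.35, 0 and 0 RPM of Fasn and activated ones 18.2, 21.3 and 1.07 RPM, 2 high and 1, WT activated 3, at the resting level. The log2 change was 3.48 ± 1.17 (limma, adjusted p = 0.348), the only one of the 9 at an unadjusted p under 0.05. DESeq2 called it (5.07 ± 1.68, adjusted p = 0.0316), as did limma without WT activated 3 (4.71 ± 1.08, adjusted p = 0.0162) and without both libraries that stood apart (4.71 ± 0.83, adjusted p = 0.000530), and edgeR called 0 of 9. DESeq2 called 6.33% of all genes here and edgeR 0%, and limma called 9.48% higher without WT activated 3 and 14.9% higher without both. The ratio of pooled counts was 24.2, with a 95% exact interval of 6.17 to 209 from counting error alone. That interval leaves out the spread between the activated libraries, which held 8, 22 and 1 counts of Fasn, so it does not stand in for the test.

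The other enzymes that rose in the Acly cohort had small positive values in activated WT cells of the Pdha1 cohort. Elovl1 went from 6.78, 9.41 and 6.76 RPM to 13.7, 21.3 and 5.35 RPM (0.60 ± 0.74, limma, adjusted p = 0.644), Scd2 from 8.82, 4.18 and 8.26 RPM to 18.2, 6.76 and 6.43 RPM (0.43 ± 0.62, 0.689) and Elovl5 from 7.46, 5.23 and 18.1 RPM to 9.11, 24.2 and 12.9 RPM (0.64 ± 0.53, 0.488). All of these groups overlapped, where 16.2% of genes had none. The receptor sum in the activated WT libraries 1 to 3 was 26547, 72700 and 106047 RPM, and the summed T cell markers 2114, 1345 and 399 RPM, in the reverse order. Scd2 in WT activated 2 was at 6.76 RPM, near its resting values, while Fasn in that library was at 21.3 RPM, far above them.

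Activation of Pdha1 KO cells gave 1.98 ± 1.17 for Fasn and 1.16 ± 0.74 for Elovl1 (limma, adjusted p = 0.978 for each, 0 of 9 called, 0 at an unadjusted p under 0.05, 0 in edgeR and DESeq2, which called 0% and 0.00329% of genes). Groups overlapped for all 9, against 8.0% of genes without overlap. Fasn stood at 1.46, 0 and 13.8 RPM at rest and 14.8, 7.69 and 6.39 RPM after activation, and Elovl1 at 5.86, 1.69 and 28.5 RPM and 18.5, 19.7 and 11.2 RPM. KO resting 3, the library with the low receptor sum, held the high resting value of both. Without both libraries that stood apart, Fasn was called at 3.26 ± 0.83 (adjusted p = 0.0192) and Elovl1 at 2.14 ± 0.54 (0.0185), where 7.0% of all genes were called higher, while leaving out KO resting 3 alone gave the same changes without a call (adjusted p = 0.229 and 0.208). Elovl6 and Acaca had values of −0.03 ± 0.44 and −0.41 ± 0.42 here.

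Between Pdha1 genotypes, activated cells gave none of 9 calls (1 at an unadjusted p under 0.05, 0 in edgeR and DESeq2, with 0% and 0.0132% of genes called). In data simulated for KO against WT in activated cells, limma found 0% of 2-fold and 13% of 4-fold changes in the Pdha1 cohort and 31% and 92% in the Acly cohort. The enzyme at an unadjusted p under 0.05 was Scd1, at 0, 0.966 and 2.14 RPM in WT and 4.43, 3.42 and 4.79 RPM in KO (1.91 ± 0.86, limma, adjusted p = 1). All KO libraries of Scd1 lay above all WT libraries, as 3.99% of genes did (1.74% were lower in this way, and no enzyme), on 16 counts against 3, a ratio of 3.40 with a 95% exact interval of 0.973 to 18.2. Fasn was 0.14 ± 1.17 and turned to −1.09 ± 0.83 without both libraries that stood apart, and the other 7 enzymes lay between −0.66 and 0.44. At rest the range was −0.35 to 1.64, the highest for Fasn, of which KO resting 3 held 13.8 RPM and the other two 1.46 and 0 RPM (adjusted p = 1, 0 of 9 at an unadjusted p under 0.05, 0 in edgeR and DESeq2, with 0% and 0.00329% of genes called), and no enzyme had groups without overlap, against 7.46% of genes. The interaction of genotype and activation was called for none of 9, with values from −1.50 ± 1.66 for Fasn to 0.72 ± 0.63 for Elovl6 (0 at an unadjusted p under 0.05, 0 in edgeR and DESeq2, with 0% and 0.0132% of genes called).

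The difference between the KO effects of both cohorts in activated cells (Acly minus Pdha1) was tested over all 24 libraries. It was 1.25 ± 0.74 for Scd2 and −1.30 ± 0.88 for Elovl1 (limma, adjusted p = 1 for each), and none of 9 passed (0 at an unadjusted p under 0.05, 0 in edgeR and DESeq2, with 0% of genes called by limma and edgeR and 0.00567% by DESeq2). That the pattern of Scd2 and Elovl1 in Acly KO cells differs from Pdha1 KO cells is therefore not shown.

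Across the 8 groups, the order of the group means differed by enzyme. Scd2 was highest in activated Acly KO cells, then in activated Acly WT cells, and each of these groups stood apart from the next. Activated Pdha1 WT cells followed at 10.5 ± 6.72 RPM, and all neighbors below them overlapped. Elovl1 was highest in activated Acly WT cells, which stood apart from activated Acly KO cells, and these overlapped with activated Pdha1 KO cells (16.5 ± 4.61 RPM). At its lower end, resting Pdha1 WT cells (7.65 ± 1.53 RPM) stood above resting Acly WT cells (3.51 ± 1.82 RPM) without overlap.

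Fasn, Elovl5 and Fads1 had both activated groups of the Acly cohort at the top, overlapping with each other and apart from the next. That next group was activated Pdha1 WT for Fasn (13.5 ± 10.9 RPM) and Fads1 (4.81 ± 2.80 RPM) and activated Pdha1 KO for Elovl5 (19.7 ± 4.54 RPM). Acaca and Elovl6 had the reverse order, with both activated Acly groups at the bottom. Every pair of neighboring groups overlapped for Acaca, which ranged from 27.3 to 51.5 RPM, and for Elovl6, which ranged from 10.3 to 24.8 RPM. Scd1 stayed between 0.789 and 4.21 RPM with all neighbors overlapping. Fads2 stood apart only in activated Acly KO cells (5.37 ± 2.58 RPM).

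The genes whose profile over the 24 libraries was most like an enzyme were taken among 8531 protein-coding genes with a mean of at least 10 RPM, as the 2 with the highest Pearson correlation of log2(RPM + 0.5). For Fasn these were Nudt1 (0.97) and Ptbp1 (0.97), for Scd2 Rfc5 (0.93) and Zfp367 (0.93) and for Elovl1 Nfkbid and Pdcd1 (0.93 each). For Elovl5 they were Ubald1 and Itgb1 (0.92 each), for Elovl6 Rgs4 (0.91) and Madd (0.90), and for Acaca Ptk6 (0.91) and Huwe1 (0.90). The 24 libraries share 8 groups and the shift of the receptor sum with activation, so these values describe likeness only. Scd1, Fads1 and Fads2 had means under 10 RPM and were left out of this search.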

How the data were processed

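The authors deposited 1 table of RPM (reads per 1000000) for 46981 Ensembl identifiers in 24 libraries of stranded total RNA, read over 75 bp from a single end per the labels' protocols. The submitters' processing notes name GRCm38 and mm10. The sources used here name no aligner, counter or annotation. Whole counts, within 0.01, were recovered from every library by inverting a correction for collisions among 4096 identifiers, so that low RPM values move in steps of 0.677 to 2.28 RPM. GENCODE M21 gave symbols for 46146 identifiers. limma 3.58.1 (R 4.3.3, trend and robust) was fitted to log2(RPM + 0.5) for genes that reached 1 RPM in 3 or more libraries, each cohort by itself with 4 groups, and p-values were adjusted by Benjamini-Hochberg over all genes tested, at 0.05. The pseudocount understates changes of low genes. All 9 enzymes passed the filter in both cohorts.

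The enzymes and lists were chosen with earlier results of these data known. Of the list genes, the text names Acly, the SREBP genes and up to 3 per list and comparison with the smallest p. 178 of 179 listed symbols were in the table. Alternatives were pseudocounts of 0.1 and 1, no filter or 5 RPM, TMM-style scaling, quantile normalization, only the groups compared, a replicate term, limma without trend and robust, edgeR 4.0.16 and DESeq2 1.42.0 on recovered counts, and leaving out libraries. Power was checked on simulated data, for genes of at least 10 RPM. Intervals of pooled counts are exact binomial and cover counting error alone, not the spread between libraries.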

Additional observations from a re-analysis of the deposited data

How the results depend on the processing

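In the Acly cohort, the rises of Fasn, Scd2, Elovl1, Elovl5 and Fads1 on activation passed in both genotypes under all alternatives in which they were tested. The number of enzymes called in activation of Pdha1 WT was 1 in DESeq2 and 1 without both libraries that stand apart, and ranged from 0 to 1 when each library was left out, while in activation of Pdha1 KO it was 2 without both. In edgeR, the sign turned for Scd1 to 0.11, Elovl5 to 0.027 and Elovl6 to 0.014 in KO against WT at rest (Acly cohort), Acaca to 0.059 in activation of Acly WT, Elovl6 to 0.063 in activation of Pdha1 KO and Fasn to −0.43 in KO against WT in activated cells (Pdha1 cohort). In DESeq2, the sign turned for Scd1 to 0.013 and Elovl1 to −0.061 in KO against WT at rest (Acly cohort), Acaca to 0.12 in activation of Pdha1 WT, Elovl6 to 0.034 in activation of Pdha1 KO and Fasn to −0.72 in KO against WT in activated cells (Pdha1 cohort). With TMM-style scaling, the sign turned for Elovl6 to 0.0060 in KO against WT at rest (Acly cohort), Acaca to 0.0094 in activation of Acly WT, Scd1 to 0.35 in activation of Acly KO and Elovl6 to 0.062 in activation of Pdha1 KO. With a pseudocount of 0.1, the sign turned for Scd1 to 0.46 in activation of Acly KO. With quantile normalization, the sign turned for Scd1 to 0.29 in activation of Acly KO and Scd1 to 0.062 in activation of Pdha1 WT. Without both Pdha1 libraries that stand apart, the sign turned for Scd1 to −0.087 in activation of Pdha1 KO and Acaca to 0.084, Fasn to −1.09 and Elovl1 to −0.092 in KO against WT in activated cells (Pdha1 cohort). None of these signs belonged to a call, and the cause was not tested. Leaving out each library in turn also turned signs of changes that had not passed. For KO against WT in activated cells (Acly cohort) the range was −0.077 to 0.15 for Acaca, −0.13 to 0.40 for Fads1 and −0.032 to 0.48 for Fasn. For KO against WT in activated cells (Pdha1 cohort) the range was −0.50 to 0.084 for Acaca, −0.092 to 0.86 for Elovl1 and −1.09 to 0.81 for Fasn. For activation of Pdha1 WT the range was −0.41 to 0.18 for Acaca, −1.02 to 0.42 for Scd1 and −0.033 to 0.68 for Scd2. For KO against WT at rest (Acly cohort) the range was −0.40 to 0.32 for Elovl1, −0.20 to 0.21 for Elovl5, −0.30 to 0.12 for Elovl6, −0.11 to 0.86 for Fads1, −0.37 to 0.99 for Fasn, −0.82 to 0.73 for Scd1 and −0.65 to 0.23 for Scd2. For activation of Pdha1 KO the range was −0.26 to 0.18 for Elovl6, −0.079 to 0.68 for Fads1, −0.43 to 0.71 for Fads2, −0.087 to 0.67 for Scd1 and −0.21 to 0.57 for Scd2. For activation of Acly KO the range was −1.07 to 0.48 for Scd1. In the Acly cohort, each activated library deviated most like the resting library of its own number, with correlations of 0.0228 (KO 2) to 0.134 (WT 3). In the Pdha1 cohort none did so, with correlations of −0.276 (KO 3) to 0.0124 (WT 1) for the same number. Whether the numbers pair the libraries is therefore not settled, and the reported fit holds no replicate term. With the replicate block, 7 enzymes in place of 6 were called in activation of Acly WT (Elovl6 at −0.91, limma, adjusted p = 0.0296), and no other call on an enzyme changed. A filter of 5 RPM left out Fads2 and Scd1, and in the Pdha1 cohort also Fads1. Depth limits all values of Scd1 and Fads2 and the resting values of Fasn and Fads1. It also limits the resting values of Elovl1 (1 to 4 counts) and Scd2 (2 to 6 counts) in the Acly cohort, and so their folds on activation.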
